A study of Mus musculus with 16 samples.

Results

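Chromatin accessibility of pancreatic islets was compared between WSB, a wild-derived strain, and 5 classical in-bred strains. The 2 WSB samples (WSB_EiJ, 1 female and 1 male) were set against 10 samples of the strains abbreviated 129 (129S1_SvImJ), AJ (A_J), B6 (C57BL/6J), NOD (NOD_ShiLtJ) and NZO (NZO_HlLtJ), again 1 female and 1 male each. These are 12 of the 16 samples of a series on 8 founder strains, and the 4 samples of the wild-derived strains CAST and PWK appear only as values beside named regions and in counts of which other strains listed a region. The strain label was the only genotype given. No treatment was labelled, and age, diet and the number of mice behind each sample were not given in the sources used here. Every strain thus had 1 sample per sex, so that p-values over samples measure the spread between these samples, which may be technical. Each sample came from a selected set of islets, and each strain is a single in-bred genotype.

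Islets hold mainly insulin-secreting beta cells with fewer glucagon (alpha), somatostatin (delta) and pancreatic polypeptide cells. In ATAC-seq a transposase cuts and tags DNA where it is not wrapped tightly in nucleosomes, so that peaks mark promoters, enhancers and insulators in use. AP-1, the FOS and JUN family of factors that bind as dimers, and islet factors of the GATA, FOX, homeobox and NEUROD families recognise short letter motifs inside such peaks. WSB descends mostly from the same house mouse subspecies that contributed most of the genome of the classical strains, whereas CAST and PWK derive from other subspecies.

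Merging the peaks of the 12 lists wherever they overlapped gave 281042 regions on chromosomes 1 to 19. Their widths had a median of 200 bases. The shared regions, those called in all 12 samples, numbered 44825. A region's value in a sample was the highest deposited summit signal there, taken as the height of the read pileup at the peak's summit. For printed levels this value was divided by the sample's median over the shared regions and is called the scaled signal, so that 1 is a typical shared region. Differences are of log2(signal + 1), centred on that same median, WSB minus the mean of the 5 classical strains.

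The WSB lists were long. They held 167051 (female) and 133259 (male) autosomal peaks, against 77887 to 141307 in the classical samples, and covered 81.5 Mb and 62.6 Mb against 33.1 Mb to 51.0 Mb. The median summit signal over shared regions was 100 and 82 in WSB and 51 to 80 in the classical samples. Read totals per sample were not analysed here, so that the depth behind a region being called or missed was not taken into account. Over the shared regions the 2 WSB samples resembled each other (Pearson's r across regions = 0.970, regions not being independent replicates), and the NZO male stood apart, with a mean r of 0.767 with the other classical samples.

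The DNA under 4 regions is shown first, because each opens 1 of the 4 orders of regions described further on. Each line gives 200 bases around the highest summit, plus strand, from the GRCm38.p6 assembly (the mm10 coordinates of the files), which is B6 DNA. The letters of WSB itself were not read. Capitals mark the letters of any searched motif on either strand. In the order used here the first region below WSB that could be printed was the Hltf intron, since the region before it holds an untranslated exon.
Cwc22 intron, higher in WSB, chr2:77933836-77934035: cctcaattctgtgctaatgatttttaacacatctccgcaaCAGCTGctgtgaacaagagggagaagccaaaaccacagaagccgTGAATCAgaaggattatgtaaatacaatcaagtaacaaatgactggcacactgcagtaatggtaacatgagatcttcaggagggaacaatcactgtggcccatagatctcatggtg
Hltf intron, lower in WSB, chr3:20076774-20076973: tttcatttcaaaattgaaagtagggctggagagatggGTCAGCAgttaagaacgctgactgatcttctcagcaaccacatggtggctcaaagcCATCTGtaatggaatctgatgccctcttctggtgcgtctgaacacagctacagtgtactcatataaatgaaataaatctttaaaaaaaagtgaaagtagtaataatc
Sycp2 intron, listed in WSB only, chr2:178406369-178406568: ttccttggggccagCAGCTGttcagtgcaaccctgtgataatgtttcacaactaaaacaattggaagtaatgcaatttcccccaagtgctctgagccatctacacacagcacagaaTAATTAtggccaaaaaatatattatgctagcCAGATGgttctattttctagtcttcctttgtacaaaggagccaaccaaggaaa
Capg upstream, listed in classical strains only, chr6:72538781-72538980: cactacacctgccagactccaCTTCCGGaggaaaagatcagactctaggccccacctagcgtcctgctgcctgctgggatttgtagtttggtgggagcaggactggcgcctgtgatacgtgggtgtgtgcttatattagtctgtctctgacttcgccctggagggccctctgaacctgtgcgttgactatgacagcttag

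Letters were searched on both strands of each window. AP-1 was taken as TGANTCA and the cyclic AMP response element, bound by CREB, as TGACGTCA. The letters of islet factor families were AGATAA for the zinc finger factors of the GATA family and TGTTTAC for forkhead factors, called FOX. Homeobox factors such as PDX1 were searched as TAATTA. NEUROD, a basic helix-loop-helix factor of endocrine cells, was searched as its E-box CAGATG. Another E-box, bound by related factors, was searched as CAGCTG. The RFX site was searched as GTTGCCA. The MAF site was searched as TGCTGAC. Promoter factors were ETS, searched as CCGGAAG, the GC box, searched as GGGCGG, and NRF1, searched as GCATGCGC. CTCF was searched by the core CCACNAGG. HNF1 was searched as GTTAATNAT. A MAF site can run into AP-1 letters and an HNF1 match can hold the homeobox letters. The Cwc22 window held the CAGCTG E-box at position 41 and AP-1 letters at position 85, counted from 1 at its 5′ end. The Sycp2 window held a CAGCTG E-box, homeobox letters and a NEUROD E-box, and the Capg window held ETS letters on the minus strand. In the Hltf window, of which 84.5% is marked as repeat in the assembly, a NEUROD E-box and a MAF site lay on the minus strand. Over the 200-base windows of all shared regions, the CAGCTG E-box was held by 16.5%, the NEUROD E-box by 19.3%, AP-1 by 13.2%, homeobox letters by 5.88%, the MAF site by 5.25% and ETS by 4.52%. A match is a description of the letters and not a binding site.

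The first comparison asked which regions open in every sample were more or less accessible in WSB. Of the 44825 shared regions, limma called 928 higher in WSB (2.07% of those tested) and 1469 lower (3.28%), together 5.35%, at a Benjamini-Hochberg adjusted p under 0.05. The called differences had a median of 1.13 on the log2 scale among the higher regions and -1.18 among the lower ones, and 639 of the higher and 1045 of the lower regions differed by more than 1. Both WSB samples lay above all 10 classical samples in 775 of the 928 higher regions and below all of them in 1244 of the 1469 lower ones. Over the 44825 regions regardless of the test, both WSB samples lay above the other 10 in 2266 (5.06%) and below in 3368 (7.51%). The same 2 counts for the classical strains, each against the other 10 samples, were 871 (B6) to 2267 (AJ) above and 959 (NOD) to 2270 (NZO) below. WSB thus had about as many regions on top as AJ, and more at the bottom than any of the other 5 strains, with no test of these counts.

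**Figure D1:**
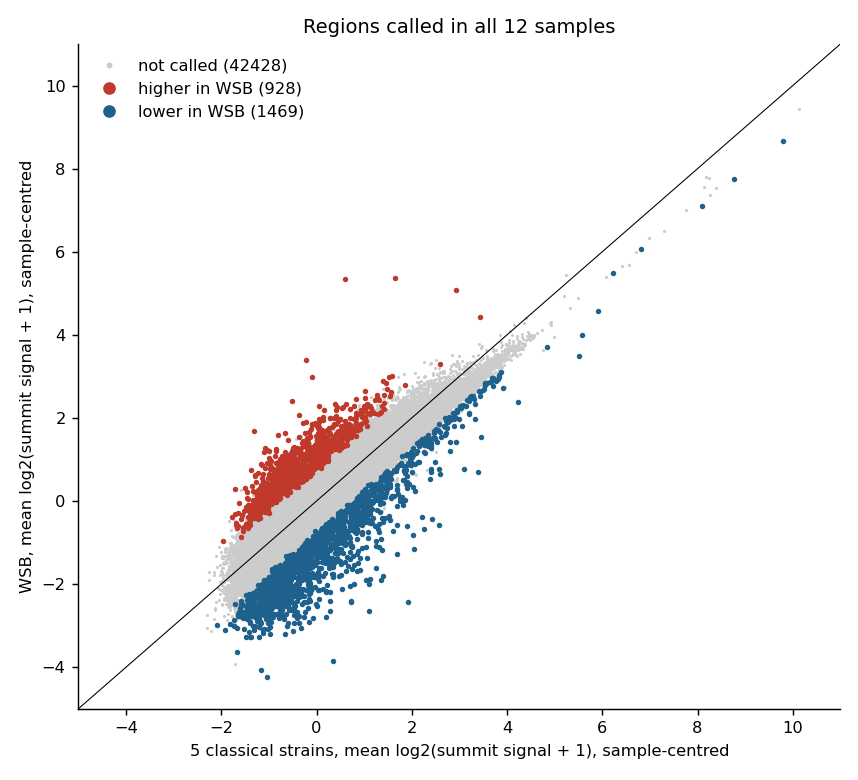
Mean log2(summit signal + 1) of the 2 WSB samples (vertical) against the mean of the 5 classical strains (horizontal), each sample centred on its median over the 44825 regions called in all 12 samples. Each point is a region, 928 called higher in WSB are red, 1469 called lower are blue, and the line marks equality.

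The number of calls rested on the scaling and on the samples used. Without centring, the median of all differences moved from -0.09 to 0.36 and the calls became 4476 higher and 424 lower, and under quantile normalisation they were 1159 and 1220, so that 38.7% of calls were higher with centring, 91.3% without and 48.7% with quantiles. Leaving out a sample left 60 calls without the WSB male, 95 without the WSB female, 1072 without the NOD female, 1138 without the NOD male and 1496 without the AJ male, and gave 5086 without the NZO female and 5514 without the NZO male. When each strain was reduced to the mean of its samples, the fit called 32 regions (0.0714%), 6 higher and 26 lower. All 32 were also called on the 12 samples, and in all 32 both WSB samples lay outside the classical range. For any single region an exact two-sided test with the strain as the unit cannot go below p = 0.167 with 1 strain against 5. The WSB difference was called different between females and males in 0 regions by limma, with 171 at an unadjusted p under 0.05.

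The largest differences in favour of WSB lay at Cwc22 on chromosome 2, which encodes a factor that joins the spliceosome and the exon junction complex. Of the 10 shared regions with the largest positive difference in which both WSB samples lay above all 10 classical ones, 4 were there. The gene lies inside R2d, a segment known to vary in copy number between mice and to be present in many copies in WSB. Copy number was not measured here, and more copies and more open copies cannot be told apart in these lists. The first region, chr2:77887137-77942986, was 55850 bases wide and covered most of the gene body. Its scaled signal was 41.4 in the WSB female and 40.8 in the WSB male, while the classical samples ran from 0.569 over a median of 1.73 to 2.57. The groups did not overlap, and the log2 difference was 4.75 ± 0.39 (SE, adjusted p = 0.000422). The region over the start site, chr2:77943565-77951852, had 39.8 and 43.3 in WSB and 1.95 to 4.35 in the classical samples, a difference of 3.72 ± 0.20 (SE, adjusted p = 6.39e-05). CAST showed 6.91 and 7.36 at the start site, above the classical samples and far below WSB.

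The nearest shared regions on either side of the raised signal were not called. Within 300 kb of the Cwc22 start site 8 regions were shared, and the 4 between 77887137 and 78027226 were called higher in WSB. The next region, 102.7 kb beyond the start site, had 4.69 and 5.00 in WSB against 2.52 to 7.24 in the classical samples, a difference of -0.01 (adjusted p = 0.984). On the other side the nearest shared region, in an intron of Zfp385b, had 0.780 and 0.915 in WSB against 0.784 to 1.63 (difference -0.44, adjusted p = 0.253). Signal at both flanks therefore overlapped between the groups, while the 4 regions in the middle did not, as their choice required.

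**Figure D2:**
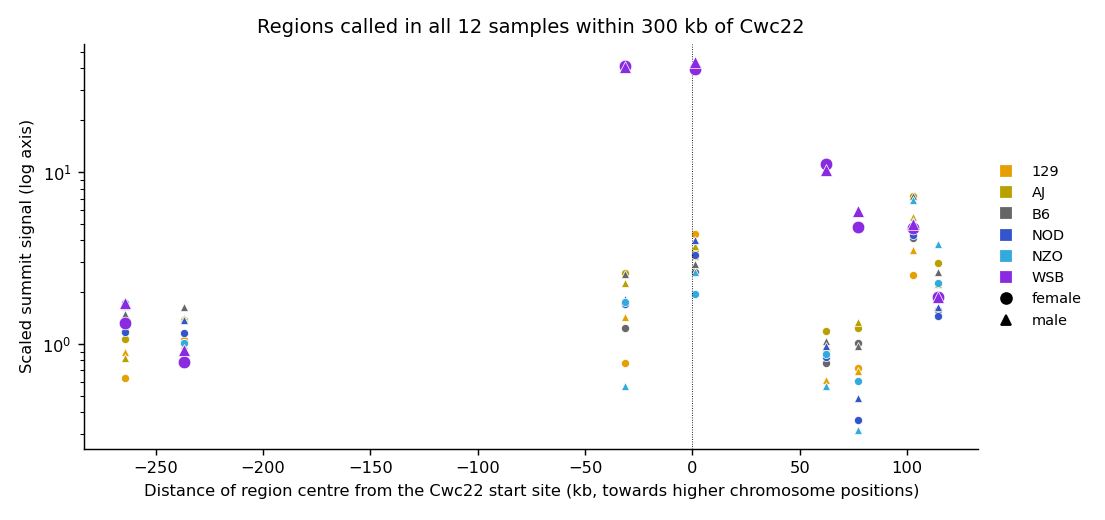
Scaled summit signal (vertical, log axis) of the 8 regions called in all 12 samples within 300 kb of Cwc22, plotted by the distance of the region's centre from the gene's start site (horizontal, kb). Each symbol is a sample, circles female and triangles male. The WSB symbols reach 43.3 at the start site and overlap the classical samples at both ends of the plot.

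The other large increases were spread over the genome. An intron of Ptprk, a receptor tyrosine phosphatase, held the region chr10:28523716-28525448, with 7.64 and 8.49 in WSB and 0.593 to 1.51 (median 0.928) in the classical samples (log2 difference 3.09 ± 0.19, SE, adjusted p = 8.7e-05). PWK stood with WSB there, at 7.88 and 7.59, and CAST was lowest, at 0.149 and 0.100. In an intron of Otulinl, named for its likeness to a deubiquitinase, chr15:27670146-27671156 had 3.30 and 3.23 in WSB against 0.295 to 0.784 (difference 3.01). An intron of Kcnb2, a voltage-gated potassium channel of the family that repolarises beta cells, had 4.37 and 4.13 at chr1:15453716-15455108 against 0.481 to 1.36 (difference 2.44). Both introns were higher in each WSB sample than in any of the 10 classical ones, as the choice of regions required. Slc44a1, a choline transporter, had 3.25 and 3.05 in WSB at 2718 bases from its start site, and the classical samples ran from 0.278 to 1.72, with AJ the highest of them. AY358078 (difference 2.40) and Gm3435 (difference 2.37) belong to families of near-identical copies, between which reads can be split, and their values are uncertain. Of these 6 regions outside Cwc22, the fit on strain means called Ptprk (adjusted p = 0.0152) and Otulinl (adjusted p = 0.011).

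Regions with little signal in WSB were led by chr16:17553679-17554927, over an untranslated exon of Lrrc74b, a leucine-rich repeat gene. Its scaled signal was 0.230 in the WSB female and 0.134 in the WSB male, and the classical samples lay between 3.25 and 4.83 with a median of 3.82 (log2 difference -4.36 ± 0.21, SE, adjusted p = 3.53e-05). CAST and PWK were also low there, with no peak in the CAST female and 0.185 to 0.594 in the others. High signal was thus shared by the classical strains and not by the 3 wild-derived ones. In an intron of Hltf, a helicase-like factor of DNA damage tolerance, chr3:20076276-20077384 had 0.0400 and 0.0854 in WSB and 0.686 to 1.86 in the classical samples (difference -4.20), and no peak in CAST or PWK. At Eif3b, a subunit of the factor that starts translation, a region 143 bases from the start site, chr5:140438664-140439799, had 0.400 and 0.488 in WSB, 3.25 to 7.39 in the classical samples (difference -3.22) and no peak in CAST or PWK. Each of these 3 regions separated all 10 classical samples from both WSB samples, as the choice of regions required. All were also called on strain means, with adjusted p = 0.00075 (Lrrc74b), 0.00266 (Hltf) and 0.011 (Eif3b). Reads were aligned to B6 DNA, so that closed chromatin cannot be told from DNA that is absent or unaligned in the wild-derived strains.

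The classical strains differed among themselves at several of the lower regions. In an intron of Osbpl1a, an oxysterol-binding protein, the WSB samples had 0.230 and 0.0976. The 129 samples had 9.33 and 13.1 there and the other 8 classical samples 0.961 to 2.26, so that WSB was lowest (difference -3.73) and 129 stood above the other classical strains. PWK, at 8.87 and 9.59, was as open as 129. In an intron of Asb5, the region nearest to Spata4 had 0.330 and 0.232 in WSB, 1.29 to 1.82 in B6 and NOD and 3.06 to 4.49 in 129, AJ and NZO (difference -3.22), 3 levels rather than a pair. The promoter of Zfp456, a zinc finger gene, had 0.720 and 0.610 in WSB and 3.53 to 10.2 in the classical samples (difference -3.15, adjusted p = 0.0302 on strain means), with CAST and PWK at 2.68 to 5.03. Introns of Nkain3 (difference -3.25) and Dlgap2 (difference -3.15), genes best known from neurons, made up the named lower regions together with Gm21119 (-3.18) and Gm2832 (-3.12), which belong to families of near-identical copies.

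**Figure D3:**
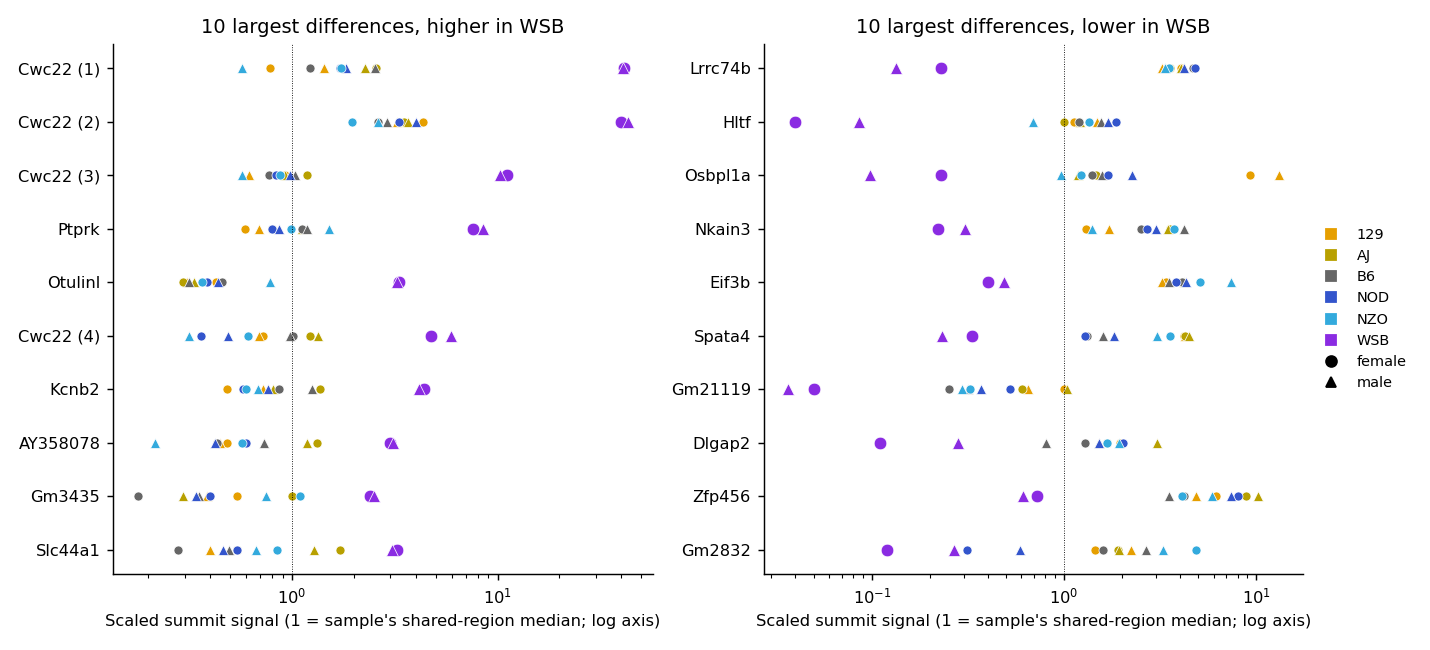
Scaled summit signal (horizontal, log axis, 1 being the sample's median over shared regions) of the 10 regions with the largest difference in each direction, named by the nearest coding gene. Each symbol is a sample, circles female and triangles male, and the purple WSB symbols lie outside the 10 classical samples in every row, as the choice of regions required. Osbpl1a shows 129 near 10 and the other classical samples near 1.

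Some lower regions lay in runs. Among neighbouring shared regions, 32 runs of 3 or more called lower were found, the longest of 21 regions, and they held 157 of the 1469 lower regions (10.7%). There were 9 runs called higher, the longest of 4 regions, with 29 of the 928 higher regions (3.13%). Most called regions of either direction thus lay outside such runs, and the difference between these shares was not tested. On chromosome 8 between 20 and 21 Mb, at Gm21119 and the defensin gene Defb33, 75 of 91 shared regions (82.4%) were called lower and none higher, and 11 of the 202 regions called in classical strains only lay in the same Mb. In the Mb before it, 13 of 28 were lower. At chromosome 2 between 176 and 177 Mb, a cluster of Gm genes such as Gm14305 and Gm14408, all 7 shared regions were lower, and the run of 10 regions there spanned 1053 kb with a median difference of -1.53. Chromosome 15 between 60 and 70 Mb had 29 of 178 shared regions lower and 1 higher, among them runs at Gsdmc and Khdrbs3. Of the 1131 shared regions in which repeats made up a 0.5 share of the window or more, 155 (13.7%) were lower and 7 (0.619%) higher. Clusters of copied genes make read placement uncertain, and its part in these runs was not tested.

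Chromosome 19 moved as a whole. There 108 of 1030 shared regions (10.5%) were called higher and 9 (0.874%) lower, against 820 higher and 1460 lower of the 43795 regions elsewhere. The median centred log2 signal over chromosome 19 was 0.52 in the WSB female and 0.51 in the WSB male. It was -0.20 and -0.32 in 129 and -0.39 and -0.62 in B6, but 0.39 and 0.42 in AJ, 0.26 and 0.27 in NOD and 0.27 and 0.53 in NZO. WSB therefore lay at the top of the classical range without leaving it, and the difference from the classical mean (median 0.40) rested mainly on 129 and B6. The shift ran along the chromosome, with a median difference of 0.35 to 0.44 in each 10 Mb between 0 and 60 Mb, and -0.06 in the 19 regions beyond. On the other chromosomes the median difference lay between -0.21 (chromosome 16) and 0.00 (chromosome 7). What moved this chromosome was not tested.

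In percentage points, the letters under the called regions differed most for AP-1. AP-1 letters lay in 46.8% of the 928 higher regions and in 5.92% of the 1469 lower ones, beside 13.2% of all shared regions. The GC box, common at promoters of widely used genes, went the other way, with 6.03% of higher regions, 12.7% of lower ones and 18.5% of all. So did ETS letters, with 0.970%, 3.20% and 4.52%, and the rarer NRF1 letters, with 0.108%, 1.09% and 1.29%. The NEUROD E-box was in 27.2%, 17.1% and 19.3% and FOX letters in 9.70%, 6.67% and 6.51% of higher, lower and all shared regions, and GATA letters in 10.0%, 10.3% and 8.68%. Promoters were here regions within 3 kb of any annotated transcript start, coding or noncoding. They made up 24.8% of the higher and 32.2% of the lower regions against 39.3% of all shared regions. Introns made up 41.4% and 26.3% against 28.1%. Outside promoters 4378 shared regions held AP-1 letters. Of these, 334 (7.63%) were called higher and 60 (1.37%) lower, and their median difference was 0.41. Of all 27222 shared regions outside promoters, 698 (2.56%) were called higher and 996 (3.66%) lower, with a median difference of -0.04.

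The AP-1 shift was measured in each sample. The median centred log2 signal over the AP-1 regions outside promoters was 0.27 in the WSB female and 0.30 in the WSB male, above all 10 classical samples. The classical samples spread widely, with 0.23 in the B6 male and -0.26 in the B6 female, 0.07 in the AJ female and -0.31 in the AJ male, 0.04 and 0.00 in NZO, -0.30 and -0.18 in NOD, and -0.53 and -0.43 in 129. Samples of 1 strain could thus differ by more than WSB differed from the nearest classical sample. In the 1524 AP-1 promoters the NZO male (0.69) lay above both WSB samples (0.51 and 0.56). Regions in which both samples of a strain lay above the other 10 held AP-1 letters in 45.2% of cases in WSB, 21.3% in NZO and 2.56% to 9.30% in the other 4 strains, whereas the regions below held them in 49.3% of cases in 129. GATA letters outside promoters gave -0.37 and -0.40 in WSB, within the -0.57 to -0.24 of the classical samples.

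**Figure D4:**
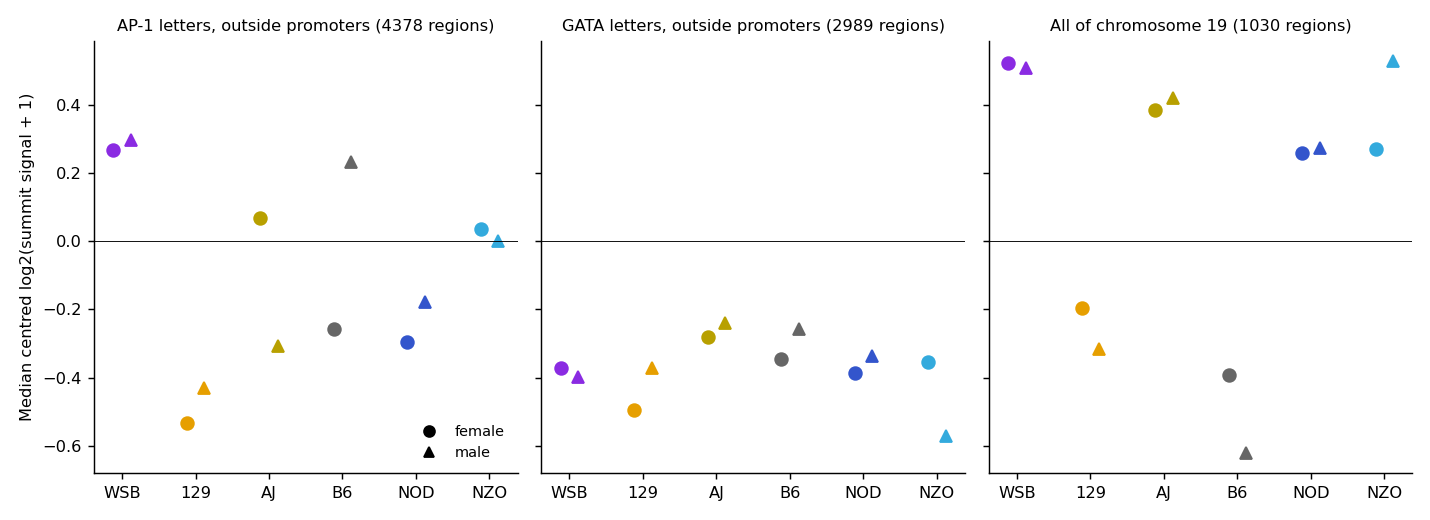
Median centred log2(summit signal + 1) per sample over 4378 shared regions outside promoters with AP-1 letters (left), over 2989 such regions with GATA letters (middle) and over the 1030 shared regions of chromosome 19 (right). Each symbol is a sample, circles female and triangles male. The WSB symbols lie above all others in the left panel, among them in the middle one and beside NZO and AJ in the right one.

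The genes of AP-1 factors themselves are immediate early genes. Of the 19 promoters tested in a list of immediate early genes, 0 were called higher and 1 lower by limma, beside 0.437% higher and 1.97% lower over the promoters of all 10075 coding genes tested. The list had a median difference of -0.21, beside -0.20 over all of these promoters. The 1 called was Jun itself, where WSB had 6.78 and 6.90 and the classical samples 8.59 to 20.2 (difference -0.94, adjusted p = 0.0348). This call was lost under 13 of 25 alternatives. The promoters of Fos (difference -0.27), Fosb (-0.03), Fosl2 (0.27) and Junb (-0.82) did not pass the test.

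Few promoters of islet genes were called. With 1 region per gene, the nearest to a coding start site, 10075 promoter regions were tested, with 44 higher (0.437%) and 198 lower (1.97%) in WSB. The tissue label was checked first. Promoters of the beta cell genes Ins1, Ins2, Iapp, Pdx1, Nkx6-1, Mafa and Slc2a2 and of the alpha cell gene Gcg were called in all 12 samples. Ppy was not, and no list held a peak within 3 kb of Sst. Summed over the beta cell list, the scaled signal was 46.1 and 46.4 in WSB and 39.4 to 62.6 in the classical samples, and over the alpha cell list 15.6 and 16.0 against 16.5 to 20.9. The leukocyte list, which had no promoter called in all 12 samples, summed to 1.05 and 0.939 in WSB and 0 to 4.73 in the classical samples, with the NZO male highest and the other 9 at 0.870 or less. Sums for acinar (3.99 to 4.56), duct (4.64 to 5.38), endothelial (7.50 to 7.61) and stellate (1.45 to 1.70) genes in WSB lay within the classical ranges. In such bulk samples fewer cells of a type and less accessible chromatin per cell cannot be told apart.

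Of 19 beta cell promoters tested, 1 was higher and 1 lower, with a median difference of -0.08. The promoter of Iapp, the amyloid peptide co-secreted with insulin, had 1.43 and 1.83 in WSB against 0.395 to 1.77 in the classical samples (difference 0.92, adjusted p = 0.0448), groups that overlapped, and the call was lost under 13 of 25 alternatives. The promoter of Slc30a8, the zinc transporter of insulin granules and a human type 2 diabetes gene, had 0.600 and 0.659 against 0.868 to 2.29 (difference -1.05 ± 0.22, SE, adjusted p = 0.0238). It was also the 1 call among 22 promoters of genes from human type 2 diabetes association studies. Ins1 had 5.38 and 5.07 against 1.57 to 6.92, Ins2 0.810 and 1.27 against 0.412 to 1.44, Pdx1 1.72 and 1.59 against 1.20 to 2.54, and Gcg 3.98 and 3.43 against 2.00 to 6.34. These 4 overlapped and did not pass the test. At Mafa, a factor of mature beta cells, both WSB samples (1.15 and 1.28) lay below the classical samples (1.38 to 3.96), but the difference of -0.71 did not pass either (adjusted p = 0.126). Of 19 promoters of endocrine transcription factors 1 was higher, that of Myt1, a zinc finger factor of endocrine differentiation, with 1.12 and 1.26 in WSB against 0.451 to 0.766 (difference 0.88, adjusted p = 0.023).

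The other lists held 0 to 2 calls each, beside 0.437% higher and 1.97% lower over the promoters of all coding genes. Calls this few describe single promoters and not their lists. Of the 17 lipid metabolism promoters tested, Cpt1a, the enzyme that admits fatty acids to mitochondria, was higher (4.14 and 3.80 against 0.585 to 3.84, difference 1.49 ± 0.23, SE, adjusted p = 0.00772), with the male just under the highest classical sample. It lies on chromosome 19. Acadm, which starts beta-oxidation of medium-chain fatty acids, was lower (4.97 and 5.28 against 7.89 to 13.0, difference -0.99, adjusted p = 0.0164), with no overlap. These 2 members of fatty acid oxidation moved in opposite directions. The lists for mitochondria and redox (19 tested), interferon response (15), histocompatibility (11) and proliferation (17) held 1 call each, lower in WSB. The 4 promoters were those of Nfe2l2, the regulator of the antioxidant response (difference -0.95), Rsad2, an interferon-induced antiviral enzyme (-0.92), Cd74, the invariant chain of class II molecules (-1.14), and Cdk4, a cyclin-dependent kinase that drives beta cell replication (-0.77). Their adjusted p ran from 0.0306 to 0.0439, and in each both WSB samples lay below all classical ones. The call was lost under 16 of 25 alternatives for Nfe2l2, 16 of 26 for Rsad2, 13 of 26 for Cd74 and 11 of 26 for Cdk4. None of the called list promoters was called on strain means. No promoter was called in the lists for glucose sensing and secretion (22 tested), alpha cells (7), delta and polypeptide cells (3), receptors (9), the unfolded protein response (20), the circadian clock (18), mouse diabetes and obesity loci (12), acinar (3), duct (3), endothelial (1) and stellate (2) genes.

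All shared regions, promoters included, were then given to the coding gene with the nearest start site. The 155 shared regions of the endocrine transcription factors included 11 higher and 4 lower (9.68% called, beside 5.35% of all shared regions). Shares in the other lists ran from 0% (circadian clock) to 10% (alpha cells), with 9.38% in the endothelial and 9.09% in the histocompatibility list. The share was thus not particular to the endocrine factors. Of their 11 higher regions, 3 were nearest to the start of Glis3 and 2 to that of Rfx3, both on chromosome 19. The Rfx3 region at position 28305529 lay in an intron of Glis3, 294389 bases from the Rfx3 start site. Glis3, a factor of beta cell development and a diabetes gene, had in an intron, at chromosome 19 position 28416462, a mean of 2.38 in WSB against 0.519 to 1.41 (difference 1.38, adjusted p = 0.0196). An intron of St18, a zinc finger factor of islets, at chromosome 1 position 6637864, had a mean of 4.01 in WSB against 0.722 to 1.86 (difference 1.72, adjusted p = 0.00645). Among the 145 regions of the glucose sensing and secretion list 6 were higher and 2 lower (5.52% called). Introns of Cacnb2, the beta-2 subunit of voltage-gated calcium channels, accounted for 3 of the 6, with differences of 0.76 to 1.36. Cacna1c, the channel's pore subunit, had 1 intron region higher (0.78) and a region at another of its start sites lower (-0.97). The other lower region lay in an intron of Tnik, 54304 bases from Slc2a2, the glucose transporter of mouse beta cells, with a mean of 0.131 in WSB against 0.255 to 1.10 (difference -1.76). A region 26214 bases from Pparg, the adipocyte nuclear receptor, had 0.349 against 0.804 to 3.42 (difference -2.37, adjusted p = 0.000474). In the clock list 0 of 48 regions were called by limma.

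The second comparison asked which regions were listed in WSB and in no classical sample. There were 8344 (2.97% of the merged regions), among 112122 listed in both WSB samples, of which 44825 were listed in all 10 classical samples too. The same count for a classical strain against the other 10 samples was 325 (AJ) to 1714 (NZO). With each list cut to its 77887 strongest peaks, the length of the shortest, WSB had 1753 such regions and the other strains 424 (B6) to 1001 (NZO), and 785 of the 8344 regions remained. When only the 0.5 share of each list with the highest −log10 p-values was kept, WSB had 4934 and the others 107 to 503. WSB thus had the most regions of its own in all 3 settings, with a gap that narrowed once the lists were equally long. Leaving out the WSB female gave 18340 and leaving out the WSB male 39682.

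**Figure D5:**
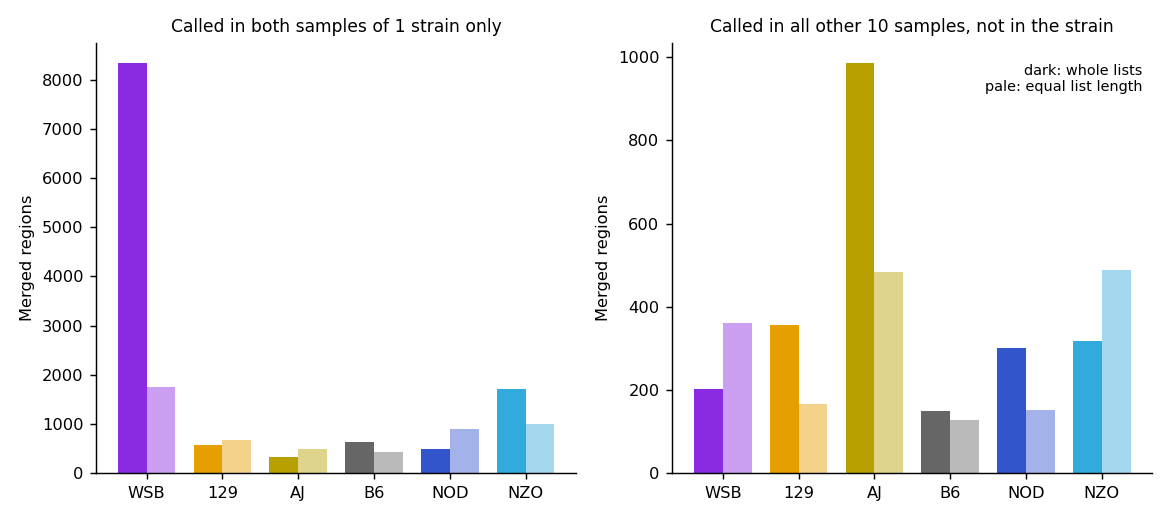
Number of merged regions (vertical, from 0) listed in both samples of 1 strain and in none of the other 10 (left) and in all other 10 samples but in neither sample of the strain (right). Dark bars use whole lists and pale bars lists of equal length. WSB has 8344 and 1753 on the left, and 202 and 360 on the right.

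Regions listed in WSB only were mostly narrow and weak, though the width was not particular to them. Their median width was 200 bases, beside 220 for regions listed in 1 classical strain only and 200 for all merged regions. Shared regions, which merge peaks of all samples, had 965. The median scaled signal of the WSB regions in WSB was 0.169, and 22 of the 8344 reached a mean of 1. Introns made up 42.9%, intergenic DNA 33.1% and promoters 20.1%. AP-1 letters lay in 30.9%, beside 15.2% of the 3725 regions listed in 1 classical strain only, where NZO had 24.6% and the other 4 strains 4.23% to 12.9%. The authors' list of reproducible WSB peaks held 1141 of them (13.7%). Both CAST samples listed 2380 (28.5%), both PWK samples 865 (10.4%), and 3541 (42.4%) were in none of the 4 CAST and PWK lists.

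The strongest of them was chr2:178406183-178406949, in an intron of Sycp2, a component of the synaptonemal complex of meiosis, 473 bases from a start site. Its scaled signal was 1.99 in the WSB female and 2.04 in the WSB male, and CAST and PWK listed weaker peaks of 0.281 to 0.617. A region over a coding exon of Pde4dip on chromosome 3 had 1.81 and 2.12, with a peak of 0.133 in the PWK female. Near Fut4, a fucosyltransferase, chr9:14754146-14756687 had 1.66 and 1.88 in WSB, PWK had 1.47 and 1.03 and the CAST female 0.129. Each was above the sample's median shared region in WSB, the signal by which these regions were ranked. The lack of a listed peak in any classical sample defined the set. Near Gprc6a, a receptor for basic amino acids, WSB had 1.75 and 1.63, and PWK 1.27 and 0.281. Near Defb3, a beta-defensin, it had 1.66 and 1.57, and CAST 0.386 and 0.554. The remaining named regions were in introns of Xkr4 (1.60 and 1.55) and Map6 (1.35 and 2.27), which no CAST or PWK sample listed, and near Mrgprb5 (1.56 and 1.38), which all 4 listed. The window at Map6 is 100% marked as repeat in the assembly, which makes read placement there uncertain.

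The third comparison took the reverse, regions listed in all 10 classical samples and in neither WSB sample. There were 202 (0.0719% of the merged regions). The same count was 149 (B6) to 986 (AJ) for the classical strains, so that WSB had the lowest count after B6, and with lists of equal length it was 360 beside 128 to 488. Of 45197 regions listed in all 10 classical samples, 99.2% were listed in both WSB samples. The 202 had a median scaled signal of 0.582 in the classical samples, and 47 had a mean of 1 or more. This level cannot be set against that of the WSB regions above. A call was required in all 10 classical lists here, but only in both WSB lists there. Intergenic DNA made up 47.5%, and AP-1 letters lay in 4.46%. Both CAST samples listed 144 of them (71.3%) and both PWK samples 127 (62.9%), while 27 (13.4%) were in none of those 4 lists. Leaving out the WSB female raised the count to 338.

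The strongest was chr6:72538217-72539381, 5010 bases from the start site of Capg, an actin-capping protein. The 10 classical samples had 4.70 to 7.67 there with a median of 6.09, CAST 5.42 and 6.23 and PWK 6.82 and 4.56, and WSB had no listed peak. Near Wdr75, a factor of ribosome assembly, the classical samples had 4.62 to 7.31 and PWK 4.83 and 4.41, but CAST only 0.614 and 0.946. Near Fam129a the classical samples had 2.26 to 5.52, PWK 3.85 and 3.31, and CAST no listed peak. WSB was thus the only strain of the 8 without the Capg peak, and shared low or unlisted signal with CAST at the other 2. The named regions at Ankrd6 (2.04 to 3.59), Rgs21 (1.87 to 3.38), Frmd4a (1.78 to 3.02) and Msantd3 (1.61 to 2.75) were listed in all CAST and PWK samples as well, and that at Mpp7 (1.70 to 3.11) in none. The Mpp7 window is 100% marked as repeat, so that read placement is uncertain there too. With the added demand that peaks cover at least a 0.5 share of the region in every listed sample, 55 regions were found, 13 of them among the 202, and Capg, Wdr75, Ankrd6 and Mpp7 were no longer among them.

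Zinc finger genes gave a group chosen after its values were seen. Of 304 promoters of genes whose symbols begin with Zfp and a number, 0 were called higher and 11 lower by limma (3.62%, beside 1.97% of all promoters), with a median difference of -0.17. Besides Zfp456, a region 1662 bases from the start of Zfp28 was lower on strain means too (mean 0.407 in WSB against 1.75 to 4.46, difference -2.97, adjusted p = 0.0302). At Zfp28 CAST had 1.98 and 2.37 and PWK no listed peak. The start of Gm14443, on chromosome 2 and not in the Zfp list, had a mean of 0.178 against 0.632 to 1.10. There CAST, at 4.05 and 6.68, and PWK, at 1.95 and 1.53, lay above all classical samples. Many Zfp genes encode repressors that bind transposable elements, and the Zfp list is not independent evidence of its direction.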

How the data were processed

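ATAC-seq was performed on islets of 8 strains, and 12 samples of 6 strains were compared here. Per the labels and the study's methods, the authors trimmed reads with cutadapt 2.0, aligned them to mm10 with Bowtie2 2.3.4.1, removed duplicates with Picard 2.9.2 and mitochondrial reads, and then called peaks in each sample with MOSAiCS (FDR 0.05). A shift for the transposase cut was not given in the sources used here. All strains were aligned to the B6 reference, so that reads with strain variants can be lost in WSB. The paper also aligned reads to individualised genomes, reported a small average difference and kept the reference alignments. The loss at single regions was not examined here. The deposited signal at the summit (whole numbers) and the deposited mean signal were taken as pileup heights, not as counts. The deposited −log10 p-value ranked peaks, and the authors' −log10 IDR chose reproducible peaks of each strain (IDR at most 0.05). The study's methods name a filter on blacklisted and chromosome Y regions, but the deposited lists still held chromosome Y peaks, and no such filter was applied here beyond the use of autosomes.

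Peaks sharing 1 base or more were merged on chromosomes 1 to 19. Signals in regions called in all 12 samples were taken as log2(signal + 1), centred on the sample's median over these regions, and fitted with limma 3.58.1 (R 4.3.3) on strain and sex. The contrast was WSB minus the mean of the 5 classical strains, and p-values were adjusted by Benjamini-Hochberg over all 44825 regions. A second fit used 6 strain means. The fit was tested on simulated data. Annotation was GENCODE M21, sequence was RefSeq GRCm38.p6, and chromosome ends in the lists lay within that assembly. Named shared regions were the 10 with the largest difference in each direction that were called and did not overlap. Named regions of WSB only and of classical strains only were the 8 with the highest scaled signal in their lowest sample, and up to 3 called promoters per gene list were named. The members, lists and motifs were chosen with earlier results of these data known. Alternatives covered centring, pseudocount, width, threshold, signal, sex and each sample or strain.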

Additional observations from a re-analysis of the deposited data

Results flagged for a closer look

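Over the 10 classical samples, 32 sets of values were examined for a sample far from the others (by the gap to the nearest sample over the whole range, Dixon's 95% limit), and 2 were found, both the NZO male. Chance gives about 1 in 20 sets. In the Otulinl intron the NZO male had a scaled signal of 0.784 and the next sample 0.456, both far below WSB. At Eif3b the NZO male had 7.39 and the next sample 5.13, both above WSB. The NZO male was also the sample with the lowest correlation with the other classical samples.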

How the results depend on the processing

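The 2397 calls over 12 samples became 4900 without centring, 1121 with regions called in at least 10 samples (0 where no peak was listed), 1466 with the stricter threshold, 1149 without strain NOD and 6497 without strain NZO, and 60 to 5514 when a sample was left out. Where a WSB sample was left out, the other was assumed to vary like the samples within a classical strain. The 32 calls on strain means became 16 in females alone, 1 in males alone, 220 without centring, 14 with quantile normalisation, 265 with regions called in at least 10 samples (4 higher and 261 lower), 11 with the stricter threshold, 14 without strain 129, 16 without strain B6 and 56 without strain NZO. The 8344 regions of WSB only became 1753 with equal lists, 4934 with the stricter threshold and 20448 with the strain lists at IDR 0.05, and ranged from 8479 to 39682 when a sample was left out. The 202 regions of classical strains only became 360, 111 and, with a 0.5 share of the region covered, 55, and ranged from 204 to 338 when a sample was left out. The cause of these changes was not tested, beyond the fewer samples or regions that some alternatives used. Among the refitted values of named shared regions and list promoters none changed direction, 642 kept their side of the threshold and 114 fell short of it, of which 16 were without the WSB female and 14 without the WSB male. Each strain had 1 female and 1 male, so that the sex term blocked the samples by sex, and without it 3035 regions were called. The labels number no replicates, and no other pairing was tried. Read depth per sample was not used here, so that an unlisted peak cannot be told from a peak below detection.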

Other observations

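Regions listed in WSB only were spread over 2131 of 2414 windows of 1 Mb, with a mean of 3.46 per window. The fullest window was chromosome 7 between 38 and 39 Mb, around Pop4 and Uri1, with 43, followed by chromosome 6 between 59 and 60 Mb at Gprin3 with 41 and between 69 and 70 Mb near Rpia with 39. In the first 2 of these windows no shared region was called higher or lower.

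At Nat1, an arylamine acetyltransferase, the promoter region was lower on both fits, with a mean of 0.125 in WSB against 0.481 to 1.22 in the classical samples (difference -2.75). An intron of the complement gene C3 (0.528 against 1.88 to 3.10) and an intron of Hps3 nearest to the copper carrier Cp (0.185 against 0.574 to 1.25) were lower on both fits as well, while a region 182245 bases from Ptprz1, a receptor tyrosine phosphatase, was higher (2.26 against 0.315 to 0.608). All 4 were picked from the strain-mean calls once their values were known.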
